A study of Homo sapiens with 6 samples.

Results

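The genes described here are 10 read-outs and feedback inhibitors of the ERK pathway: DUSP4, DUSP5, DUSP6, SPRY2, SPRY4, SPRED1, ETV4, ETV5, PHLDA1 and EGR1. They were taken by symbol from a table of 54261 gene rows, and all 10 were present. They were compared between 786-O, a long-established cell line from a human clear-cell renal carcinoma that lacks functional VHL, and 7R, a 786-O line that the labels call sunitinib-resistant. Sunitinib inhibits the VEGF and PDGF receptors and several other receptor tyrosine kinases. Each line was sequenced as 3 libraries of total RNA, called control (786-O) and resistant (7R) here. Both lines were grown in 1640 medium. The labels do not say whether sunitinib was present at harvest, whether 7R is a single clone, or whether replicates are separate cultures. The p-values therefore reflect only how far these libraries spread, and that spread may be technical.

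In the ERK pathway, receptor tyrosine kinases load RAS with GTP, RAS engages RAF kinases, RAF phosphorylates MEK, and MEK phosphorylates ERK. ERK enters the nucleus and drives transcription factors of the ETS family and, with SRF, immediate early genes such as EGR1. Part of its output turns the pathway down again: DUSP phosphatases dephosphorylate MAP kinases, Sprouty proteins (SPRY) blunt signalling between receptor and RAF, and SPRED1 brings the RAS inactivator neurofibromin to the membrane. Transcripts of these genes are widely read as a measure of ERK output, but phosphorylated ERK was not measured here.

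Promoter sequence from RefSeq (GRCh38.p14) was searched for 6 of the 10 genes: EGR1, SPRY4, PHLDA1, DUSP6, SPRY2 and SPRED1. DUSP4 was left out of the search, and DUSP5, ETV4 and ETV5 had no entry in the promoter set used. The 250 bases before the annotated start are shown for EGR1, the classical SRF target, and for SPRY2, a feedback gene that was lower in 7R by every setting tried. Capitals mark 3 motifs searched on both strands: the CArG box bound by SRF, the letters CCGGAA (an ETS core) and the letters TGACGT (a CREB core). No matches overlapped.
EGR1, chr5:138465229-138465478, plus strand: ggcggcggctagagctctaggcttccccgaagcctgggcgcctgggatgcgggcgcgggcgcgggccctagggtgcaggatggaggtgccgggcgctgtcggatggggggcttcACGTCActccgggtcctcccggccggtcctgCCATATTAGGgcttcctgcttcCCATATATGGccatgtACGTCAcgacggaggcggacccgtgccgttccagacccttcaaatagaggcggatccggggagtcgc
SPRY2, chr13:80341127-80341376, minus strand: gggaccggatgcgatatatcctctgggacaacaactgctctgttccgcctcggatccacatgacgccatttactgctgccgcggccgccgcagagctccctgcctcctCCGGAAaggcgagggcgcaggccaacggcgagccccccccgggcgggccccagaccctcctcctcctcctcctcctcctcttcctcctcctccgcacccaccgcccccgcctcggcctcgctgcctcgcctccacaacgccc

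The EGR1 window held 2 CArG boxes and 2 matches to TGACGT, read as ACGTCA on this strand. Of 35116 RefSeq windows of the same length, 1.16% held a CArG box and 7.1% held TGACGT. The SPRY2 window held 1 match to CCGGAA, as did that of PHLDA1, and 14.5% of all windows held it. The windows of SPRY4, DUSP6 and SPRED1 held none of the 3, which says only that these letters are not in those 250 bases. RefSeq gives SPRY2 3 starts, and the window shown belongs to the most upstream one. The windows of its other starts held none of the 3 motifs. A match is a description of the letters, not evidence of binding.

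Total counts were 48264905 to 52221491 in the control and 37919629 to 38131634 in the resistant libraries. Levels below are CPM, in which counts are divided by the library total and its TMM factor to put the bulk of genes of all libraries on a common level. A count of 0 allows up to 3 counts, or 0.0663 to 0.0707 CPM, for counting error only. Of 10 renal markers, 7 reached 1 CPM in every library, PAX8 among them, and CA9 was at 0 throughout. The renal list's summed level was 12500 to 13700 CPM in control and 3460 to 4370 CPM in resistant libraries, carried mainly by VIM. Within that list NNMT was higher in every resistant library (147 to 155 CPM in control, 168 to 187 CPM in resistant). PAX8 (493 to 585 and 397 to 415 CPM), PAX2, EPAS1, VIM, KRT8, KRT18 and NDUFA4L2 were lower in every one, and LHX1 overlapped. The extraction text names a brain region. Of 10 neuronal and glial markers 4 reached 1 CPM in every library, MOG was at 0 and GFAP at most 0.184 CPM, with sums, mostly NEFL and MBP, of 129 to 145 CPM in control and 112 to 136 CPM in resistant libraries. Single members were higher in every resistant library: SNAP25 went from at most 3.84 to at least 11.1 CPM and MBP from at most 27.3 to at least 37.6 CPM. SYT1 went from at most 0.552 to at least 1.46 CPM and AQP4 from 0 to at least 0.278 CPM. Others were lower in every one: NEFL went from at least 95.9 to at most 75.5 CPM and GAD1 from at least 3.25 to at most 2.1 CPM. Their part in the results was not tested. Immune and endothelial lists (6 genes each) summed to at most 1.11 and 0.935 CPM. Resistant replicate 1 stood apart within its line (chi-square per degree of freedom 62.9 and 60.1 against the other resistant libraries, which gave 8.94 between them). Control replicate 1 did so to a smaller extent (26.5 and 35.5, against 12.4 between the other control libraries).

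Of the 10 genes, 8 were lower and 1 was higher in the resistant line at an adjusted p of 0.05 (edgeR's quasi-likelihood test, Benjamini-Hochberg adjustment over 16642 tested genes). SPRED1 rose, and DUSP6 did not pass the test. Among all tested genes 36.9% were called lower and 39.3% higher. The resistant libraries lay wholly below the control libraries for the same 8 genes and wholly above for SPRED1, against 39.0% and 41.4% of all tested genes. A decrease of at least 2-fold was called for 5 of the 10, against 22.4% of all tested genes. The median log2 fold change was -1.05 over the 10 genes and 0.05 over all tested genes. In bulk RNA, fewer cells expressing a gene and less of its RNA per cell cannot be told apart.

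**Figure D1:**
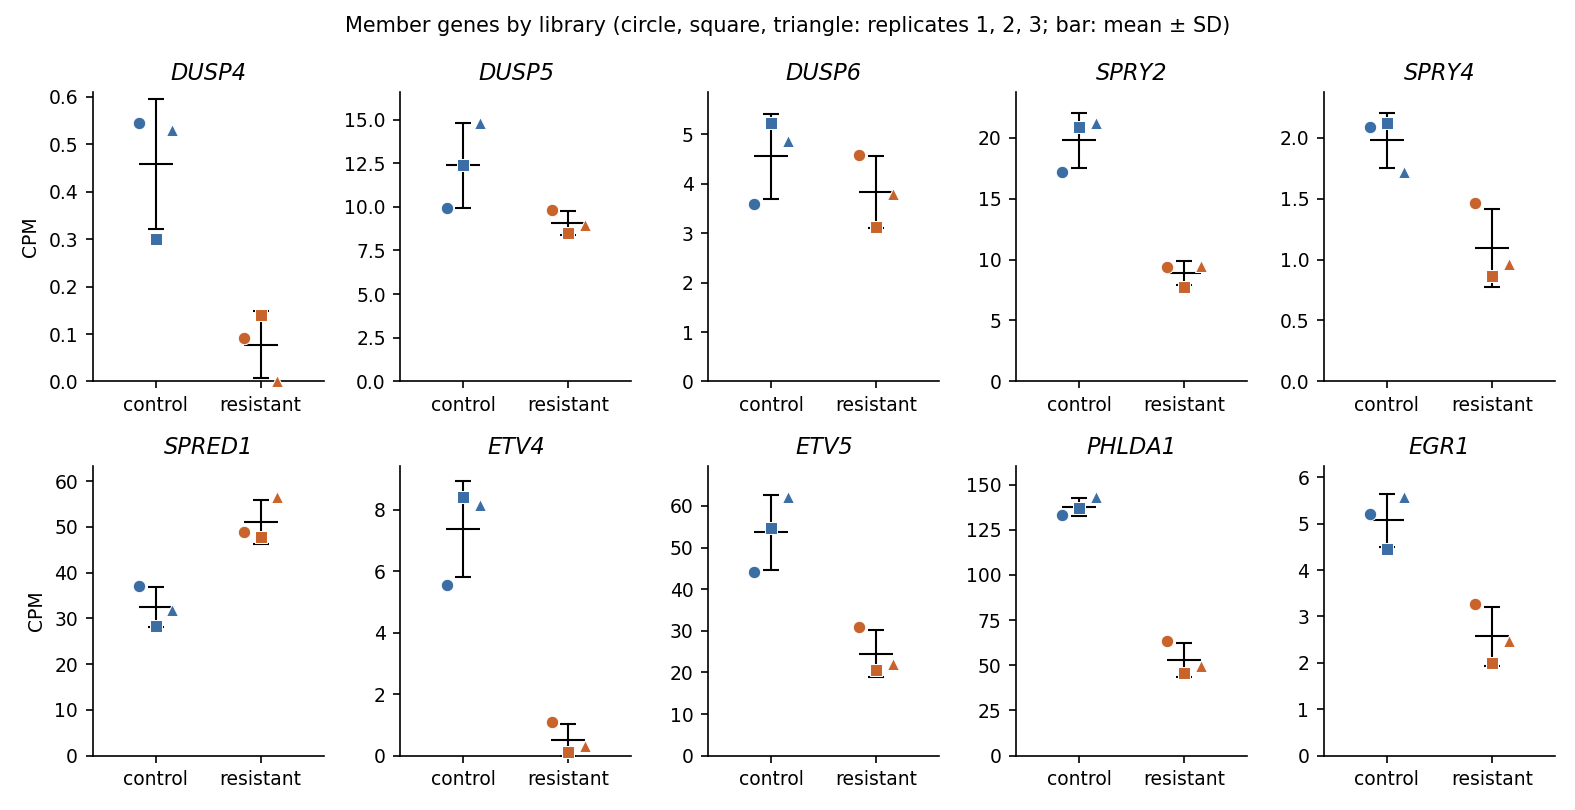
Level of each gene (CPM on the TMM scale, linear axis from 0) in the 3 control and 3 resistant libraries, with mean and SD. The resistant points lie below the control points in 8 panels, above them for SPRED1 and among them for DUSP6.

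ETV4 and ETV5 encode ETS transcription factors of the PEA3 group, which ERK signalling induces and activates. ETV4 had the largest change of the 10 genes. It stood at 5.57, 8.41 and 8.15 CPM in control replicates 1 to 3 and at 1.11, 0.117 and 0.33 CPM in resistant replicates 1 to 3. The resistant libraries were all far below the control libraries, and resistant replicate 1 was the highest of them. Means were 7.38 ± 1.57 and 0.519 ± 0.524 CPM (SD, n = 3), 14.1-fold lower, with a log2 fold change of -3.82 ± 0.49 (SE, edgeR adjusted p = 1.87e-05). Pooled counts of 979 and 67 gave a ratio of 14.1 (exact 95% interval 11.0 to 18.4, counting error only). Without resistant replicate 1 the log2 fold change was -5.04.

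ETV5 was more abundant. Its levels were 44.2, 54.7 and 62.1 CPM in the control and 31.0, 20.6 and 22.0 CPM in the resistant libraries. The lowest control library stayed above the highest resistant one, resistant replicate 1. The means of 53.7 ± 8.97 and 24.5 ± 5.64 CPM (SD, n = 3) differed 2.19-fold (log2 fold change -1.13 ± 0.17, edgeR adjusted p = 6.79e-05).

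The Sprouty genes were both lower. SPRY2, which restrains receptor tyrosine kinase signalling to RAS and RAF, was at 17.2, 20.9 and 21.2 CPM in control and 9.42, 7.76 and 9.45 CPM in resistant libraries. The groups were well separated and each was tight. The means of 19.8 ± 2.21 and 8.88 ± 0.967 CPM (SD, n = 3) gave a 2.23-fold decrease (log2 fold change -1.16 ± 0.14, edgeR adjusted p = 1.29e-05).

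SPRY4, a relative that also inhibits RAS activation, was at 2.09, 2.12 and 1.72 CPM in control and 1.46, 0.865 and 0.966 CPM in resistant libraries. Resistant replicate 1 came close to the lowest control library. The fold change of 1.8 (log2 -0.85 ± 0.29, edgeR adjusted p = 0.0187) rested on 262 and 141 pooled counts. The call was lost without resistant replicate 2 (adjusted p = 0.0673) or resistant replicate 3 (adjusted p = 0.0586), and after GC and length adjustment (-0.21, adjusted p = 0.533). SPRY4, ETV5 and PHLDA1 have annotated antisense genes, and counting by strand is not stated, so antisense reads may be included in their counts.

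SPRED1, the membrane partner of neurofibromin, was the gene that rose. It was at 37.1, 28.4 and 31.9 CPM in control and 48.8, 47.9 and 56.5 CPM in resistant libraries. All resistant libraries were above all control libraries. The means of 32.5 ± 4.41 and 51.1 ± 4.7 CPM (SD, n = 3) gave a 1.57-fold increase (log2 fold change 0.65 ± 0.13, edgeR adjusted p = 5.21e-04). This direction turned after adjustment for transcript GC content, as given below.

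Of the 3 dual-specificity phosphatases, DUSP4 and DUSP5 were called lower. DUSP4, a nuclear phosphatase of ERK and other MAP kinases, was barely detected. It had 24, 13 and 24 counts in control and 4, 6 and 0 counts in resistant libraries. The highest resistant library stayed below the lowest control library, but every value was small. Levels of 0.458 ± 0.138 and 0.0776 ± 0.0713 CPM (SD, n = 3) gave a log2 fold change of -2.52 ± 0.74 (edgeR adjusted p = 0.00795). The pooled ratio of 5.9 had an exact 95% interval of 3.0 to 12.9 for counting error. The log2 fold change ran from -1.95 without resistant replicate 3, which holds the 0, to -3.23 without resistant replicate 2.

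DUSP5, a nuclear phosphatase selective for ERK, was at 9.95, 12.4 and 14.8 CPM in control and 9.79, 8.48 and 8.95 CPM in resistant libraries. Control replicate 1 and resistant replicate 1 almost met. The 1.37-fold decrease (log2 -0.45 ± 0.16, edgeR adjusted p = 0.0252) rested on levels to which reads of its pseudogenes DUSP5P1 and DUSP5P2 may contribute. It was no longer called without control replicate 3 (adjusted p = 0.0985), resistant replicate 2 (adjusted p = 0.0726) or resistant replicate 3 (adjusted p = 0.0644). After adjustment for transcript GC content and length the direction turned, to a called log2 fold change of 0.46.

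DUSP6, the cytoplasmic ERK phosphatase and a commonly used read-out of ERK activity, was at 3.59, 5.23 and 4.86 CPM in control and 4.58, 3.13 and 3.79 CPM in resistant libraries. The groups overlapped. With means of 4.56 ± 0.861 and 3.84 ± 0.727 CPM (SD, n = 3) the log2 fold change of -0.25 ± 0.21 did not pass the test (edgeR adjusted p = 0.306), which does not show that the lines are alike.

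PHLDA1, a pleckstrin homology-like domain protein induced by growth factors, was at 133, 137 and 143 CPM in control and 63.7, 45.8 and 49.6 CPM in resistant libraries. The control libraries were nearly equal, and resistant replicate 1 was again the highest of its line. The means of 138 ± 5.21 and 53.0 ± 9.43 CPM (SD, n = 3) gave a 2.6-fold decrease (log2 fold change -1.38 ± 0.13). Its edgeR adjusted p of 1.5e-06 was the smallest of the 10 genes.

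EGR1, a zinc finger factor transcribed within minutes of ERK activation, was at 5.2, 4.45 and 5.57 CPM in control and 3.26, 1.99 and 2.47 CPM in resistant libraries. The groups did not overlap. The means of 5.07 ± 0.571 and 2.57 ± 0.645 CPM (SD, n = 3) gave a 1.97-fold decrease (log2 fold change -0.98 ± 0.22, edgeR adjusted p = 0.00151). The call was lost after GC and length adjustment (-0.2, adjusted p = 0.382).

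With 3 libraries a line, the smallest two-sided p an exact permutation test can give is 0.1. On log2(CPM + 1) it gave 0.1 for the 9 genes without overlap and 0.3 for DUSP6.

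Resistant replicate 1 was the highest resistant library for 7 of the 10 genes: DUSP5, DUSP6, SPRY4, ETV4, ETV5, PHLDA1 and EGR1. Its level over the mean of the other resistant libraries was 4.98 for ETV4, 1.59 for SPRY4, 1.46 for EGR1 and 1.45 for ETV5, and 0.936 for SPRED1. Control replicate 1 was the lowest control library for 6 of the 10: DUSP5, DUSP6, SPRY2, ETV4, ETV5 and PHLDA1. How often these libraries held those places among all tested genes was not computed. Without resistant replicate 1 the calls still numbered 8 lower and 1 higher, against 36.6% and 38.8% of all tested genes. The median log2 fold change was then -1.2 over the 10 genes and 0.06 over all tested genes.

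Levels were ordered by CPM per kilobase of transcript, using median lengths of GENCODE transcripts. In the control line PHLDA1 came first at 23.3 ± 0.882 CPM per kilobase (SD, n = 3), ahead of ETV5 (17.0 ± 2.84) and SPRY2 (8.2 ± 0.919). DUSP5 (4.85 ± 0.949), SPRED1 (4.18 ± 0.567) and ETV4 (4.16 ± 0.886) followed, with ranges that overlapped from each to the next. DUSP6 (2.33 ± 0.44), EGR1 (1.62 ± 0.182), SPRY4 (0.541 ± 0.0604) and DUSP4 (0.108 ± 0.0324) were lowest and did not overlap their neighbours.

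In the resistant line PHLDA1 (8.97 ± 1.59 CPM per kilobase), ETV5 (7.76 ± 1.78) and SPRED1 (6.56 ± 0.604) led, each overlapping the next. SPRY2 (3.68 ± 0.401) and DUSP5 (3.55 ± 0.259) also overlapped, as did SPRY4 (0.3 ± 0.0868) and ETV4 (0.293 ± 0.295), ranked 8 and 9. ETV4 had ranked 6 in the control line. SPRED1 ranked 5 in control, overlapping ranks 4 and 6, and 3 in resistant. After the GC and length adjustment described below it ranked 4 in both lines (7.06 ± 0.65 and 4.41 ± 0.624 adjusted CPM per kilobase), and DUSP5 passed it in the resistant line (5.17 ± 0.132). In that adjusted order of the resistant line ETV5 (9.11 ± 1.84) ranked 1 and PHLDA1 (7.21 ± 1.91) ranked 2, with overlapping ranges. ETV4 (0.467 ± 0.433) and SPRY4 (0.397 ± 0.0919) then ranked 8 and 9, also overlapping.

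Fold changes in this comparison followed the GC content of the transcripts over all genes, and the 10 genes span a wide range of it. Across the 13912 tested genes with a GC value (83.6% of those tested), GC content and log2 fold change had a Spearman's rho of -0.68; genes are not independent replicates. SPRED1 had the lowest GC content of the 10 (38.9%), and 914 genes within 1 percentage point of it had a median log2 fold change of 1.25, above its own 0.65. ETV4 had the highest (60.2%), and its -3.82 compared with a median of -1.19 over 753 genes of like GC content. Whether GC content of the transcripts accounts for any of these differences was not tested.

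For some genes the fold change was close to that of genes of like GC content. EGR1 (55.4% GC) had -0.98 against a median of -0.85, SPRY4 (54.4%) had -0.85 against -0.76, and DUSP6 (50.0%) had -0.25 against -0.19. DUSP5 (55.9%) lay above its neighbours, at -0.45 against -0.88.

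Others lay below. PHLDA1 (43.0% GC) had -1.38 where genes of like GC content had a median of 0.79, and SPRY2 (46.8%) had -1.16 against 0.23. DUSP4 (53.9%) had -2.52 against -0.67, and ETV5 (51.1%) had -1.13 against -0.42. Of genes of like GC content, 1.5%, 5.23% and 1.65% had a lower log2 fold change than PHLDA1, SPRY2 and DUSP4. For ETV5 that share was 15.0%.

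**Figure D2:**
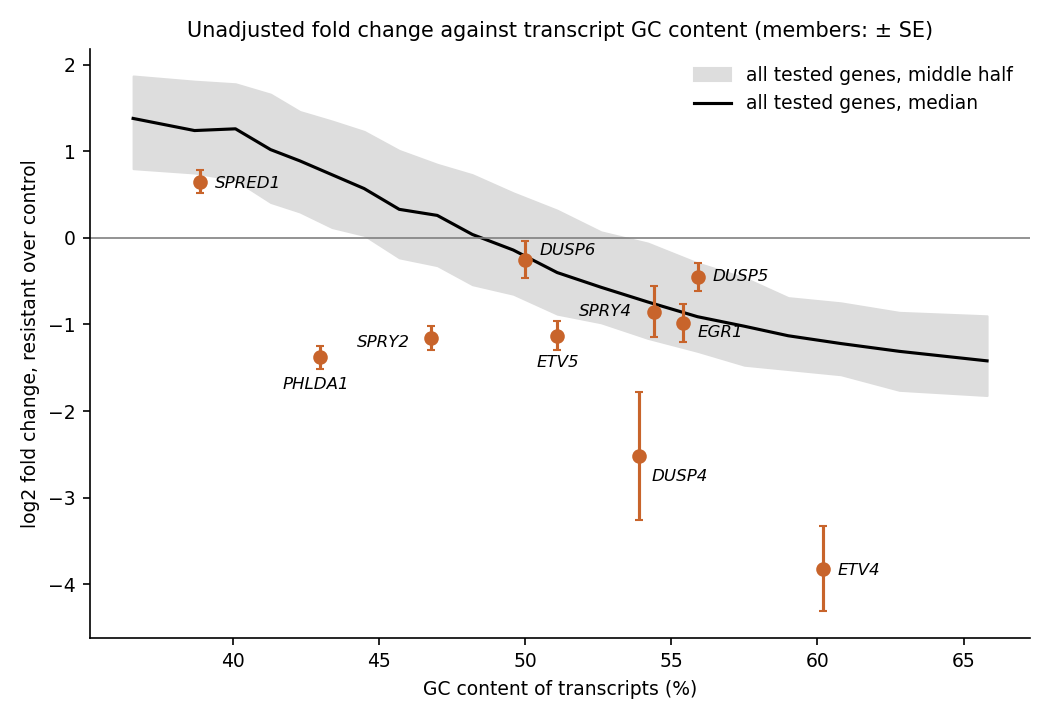
Unadjusted log2 fold change (resistant over control) against transcript GC content in percent. The line and the grey band give the median and the middle 50% of the 13912 tested genes with a GC value, in 20 bins of GC content. Points are the 10 genes with SE. PHLDA1, SPRY2, ETV5, DUSP4 and ETV4 lie below the band, EGR1, SPRY4 and DUSP6 near the line, DUSP5 within the upper part of the band, and SPRED1 just under the band at low GC content.

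When each library was corrected for a smooth dependence on transcript GC content and length, 6 of the 10 genes were called lower and 1 higher by edgeR. The background in that fit was 32.6% lower and 34.3% higher of 13912 genes. DUSP4, SPRY2, ETV4, ETV5 and PHLDA1 were lower both before and after (5 of 10, against 21.9% of genes tested in both fits). SPRED1 and DUSP5 were called in opposite directions by the fits (2 of 10, against 9.7% of genes). The fits also differ in the genes they cover. Without adjustment on the same 13912 genes, 7 of the 10 were lower, against 38.4% of all. DUSP5 was then at -0.37 and not called (edgeR adjusted p = 0.0545). EGR1, SPRY4 and DUSP6 were not called after adjustment.

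The decrease of PHLDA1 was larger after adjustment. Its adjusted levels were 175, 201 and 217 CPM in control and 55.5, 34.6 and 37.7 CPM in resistant libraries. The lines were far apart, with an adjusted log2 fold change of -2.21 ± 0.16 (SE, edgeR adjusted p = 3.81e-07). SPRY2 hardly moved, at -1.3 ± 0.13 (edgeR adjusted p = 6.34e-06).

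ETV4 remained the most reduced gene, with adjusted levels of 4.02, 5.47 and 5.1 CPM in control and 1.69, 0.217 and 0.58 CPM in resistant libraries. The libraries of the lines did not overlap. The adjusted log2 fold change was -2.49 ± 0.44 (edgeR adjusted p = 3.72e-04), and -3.6 with resistant replicate 1 left out. ETV5 stood at -0.84 ± 0.14 (edgeR adjusted p = 3.11e-04). DUSP4 was at -1.94 ± 0.73 (edgeR adjusted p = 0.0346), a call lost without resistant replicate 1 (-2.05, adjusted p = 0.0659).

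SPRED1 changed sides. Its adjusted levels were 56.6, 49.2 and 58.9 CPM in control and 39.1, 29.4 and 34.3 CPM in resistant libraries. Every resistant library was now below every control library, with a log2 fold change of -0.68 ± 0.11 (edgeR adjusted p = 1.86e-04). DUSP5 changed the other way, with 8.1, 9.61 and 11.0 CPM in control and 13.2, 12.9 and 13.6 CPM in resistant libraries. All resistant libraries were then above the control libraries, with a log2 fold change of 0.46 ± 0.13 (edgeR adjusted p = 0.00908).

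Groups of EGR1, SPRY4 and DUSP6 overlapped after adjustment. EGR1 ranged from 3.62 to 4.37 CPM in control and from 2.88 to 4.23 CPM in resistant libraries (log2 fold change -0.2 ± 0.2, edgeR adjusted p = 0.382). SPRY4 was at -0.21 ± 0.28 (adjusted p = 0.533) and DUSP6 at 0.06 ± 0.2 (adjusted p = 0.798).

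**Figure D3:**
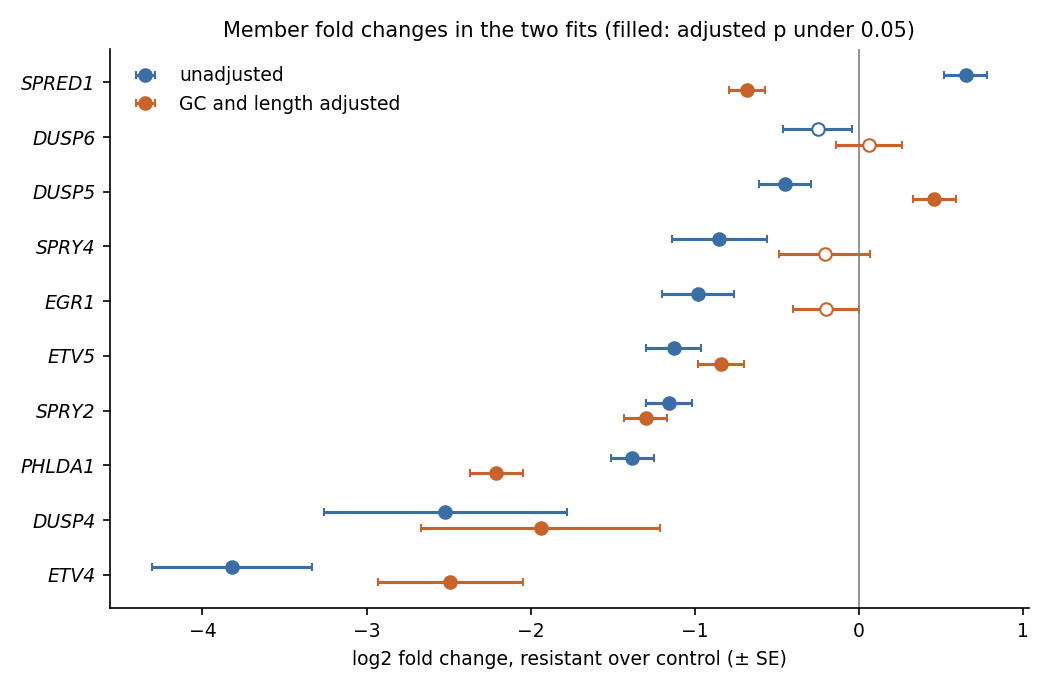
Log2 fold change (resistant over control, with SE) of each gene without adjustment (blue) and after GC and length adjustment (orange); filled points have an adjusted p under 0.05. ETV4, DUSP4, PHLDA1, SPRY2 and ETV5 are filled and below 0 in both, and SPRED1 and DUSP5 cross 0.

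**Figure D4:**
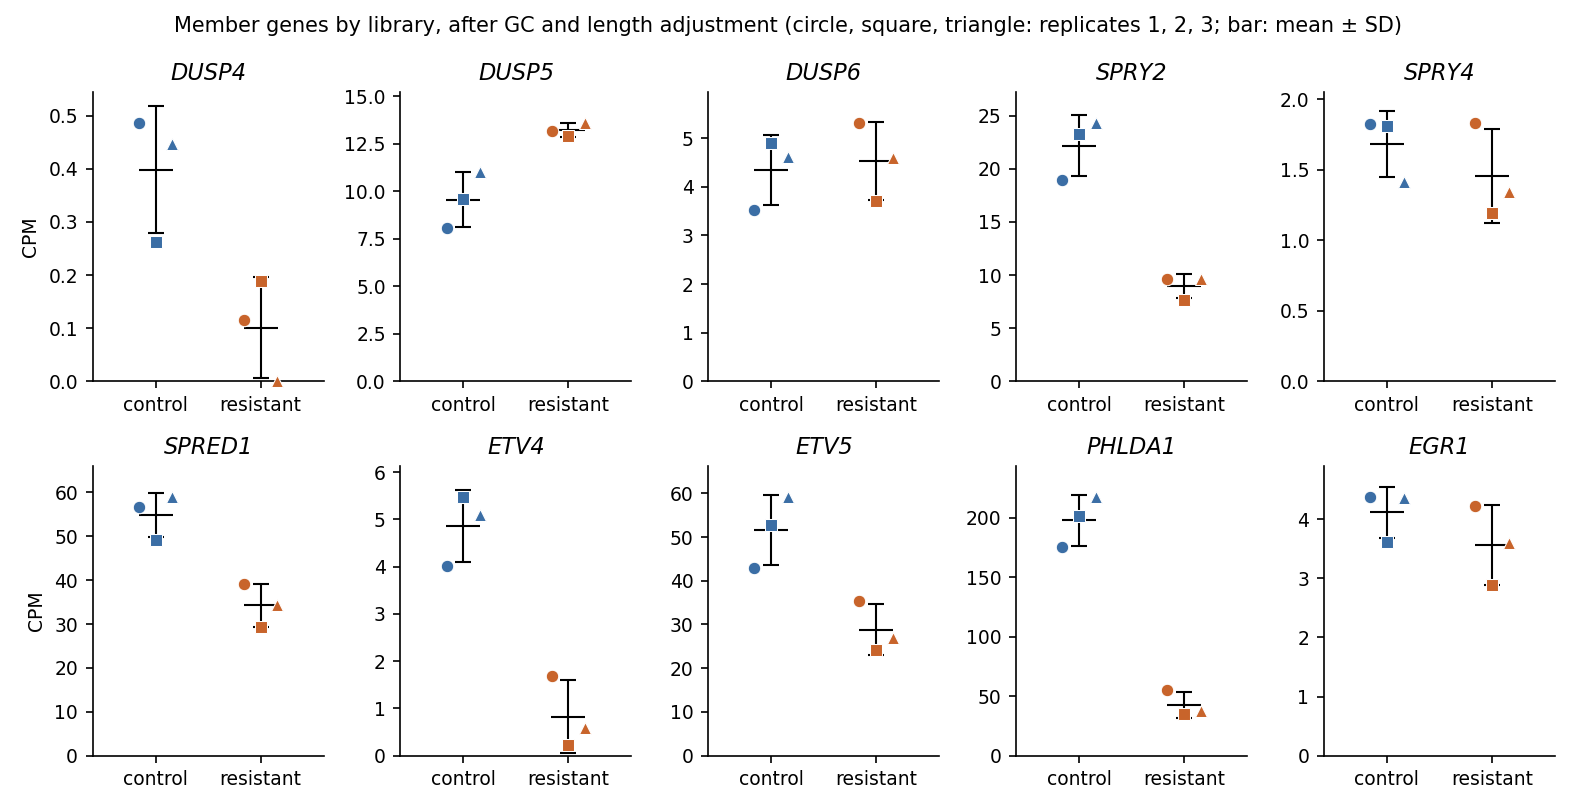
Level of each gene after GC and length adjustment (CPM, linear axis from 0) in the 3 control and 3 resistant libraries, with mean and SD. Compared with the unadjusted levels, SPRED1 and DUSP5 exchange the order of the lines, while PHLDA1, SPRY2, ETV4, ETV5 and DUSP4 keep the resistant libraries below.

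Scaling matters as well. When libraries were scaled by total count alone, the median log2 fold change of all tested genes moved from 0.05 to 0.39, and 28.4% of genes were called lower and 47.2% higher. On that scale 6 of the 10 genes were lower and 1 higher, with a median of -0.71. DUSP5 (-0.1, edgeR adjusted p = 0.575) and SPRY4 (-0.51, edgeR adjusted p = 0.139) were no longer called.

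Among tested genes, leaving out clone, LOC, LINC and antisense names, the profile of ETV4 across the 6 libraries was most like those of APLN, TGM2 and FAM20C. Likeness was the root-mean-square difference of centred log2(CPM + 0.1) values (0.29, 0.42 and 0.47). Their log2 fold changes were -4.39, -3.89 and -4.0, and a decrease of like size itself makes this difference small.

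Of 64 other genes of the pathway, in 8 lists, 57 passed the low-count filter, of which 28 were lower and 19 higher in the resistant line, where 36.9% and 39.3% of all tested genes were. After GC and length adjustment 21 were lower and 21 higher, near the 32.6% and 34.3% of all genes in that fit, with medians of -0.48 before and 0.02 after. Of these genes, 17 were lower in both fits, 11 were higher in both and 8 were called in opposite directions, against 21.9%, 24.0% and 9.7% of all genes tested in both. Shares of all genes for the single lists below are the same 36.9% lower and 39.3% higher before and 32.6% lower and 34.3% higher after adjustment. The lists were drawn up from pathway roles with earlier results of these data known. Values marked adjusted for GC below are from the fit adjusted for both GC content and length.

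Of 12 other ERK output genes 9 were tested, and all 9 were lower before adjustment (median log2 fold change -1.33; 36.9% of all genes were lower), while EGR2, EGR3 and EGR4 had at most 38 counts over the control libraries. After adjustment 6 were lower and 3 higher (median -0.38; 32.6% and 34.3% of all genes). FOSL1, an AP-1 subunit stabilised by ERK, fell from 283 ± 49.4 to 54.2 ± 13.4 CPM (SD, n = 3; log2 fold change -2.39, adjusted for GC -1.13). HBEGF, an EGF receptor ligand, fell from 41.9 ± 5.1 to 9.71 ± 0.852 CPM (-2.11, adjusted for GC -1.74). CCND1, the G1 cyclin D1, fell from 887 ± 42.2 to 288 ± 23.4 CPM (-1.62, adjusted for GC -0.56).

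Relatives of the feedback genes were tested too. Of 7 tested dual-specificity phosphatases 4 were lower and 0 higher, and after adjustment 2 were lower and 3 higher, near the shares of all genes (32.6% and 34.3%). DUSP3 was lower in both (log2 fold change -1.0, adjusted for GC -0.91), DUSP7 was lower before adjustment only (-1.25 and -0.14), and DUSP9 turned from -0.82 to 0.73. SPRY1 and SPRY3 were too low to test. SPRED3 was lower before adjustment (-1.52) and not called after it (0.19), and SPRED2 was called only after it (0.71).

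Other ETS factors and SRF gave 4 lower and 4 higher of 8 before adjustment, and 5 lower and 2 higher after, with all genes at 36.9% and 39.3% before and 32.6% and 34.3% after. The log2 fold change of ERF, an ETS repressor that ERK inactivates, was -2.03 (-0.53 after adjustment). That of SRF was -1.51 (-0.31), and that of ELK1, the ERK-phosphorylated partner of SRF, was -1.48 (-0.25).

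Within the cascade itself, 5 of 10 core genes were lower and 3 higher, and after adjustment 4 were lower and 2 higher, near the shares of all genes (32.6% and 34.3%). MAPK3, which encodes ERK1, fell from 76.2 ± 9.87 to 18.2 ± 1.75 CPM (SD, n = 3; log2 fold change -2.06, adjusted for GC -0.71). MAP2K2, which encodes MEK2, was at -1.48 and was not called after adjustment (0.07, edgeR adjusted p = 0.387).

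Upstream of RAF, adaptors and RAS exchange factors gave 4 higher and 2 lower of 7 tested, and 3 higher and 2 lower after adjustment, where 34.3% and 32.6% of all genes were. PTPN11, the phosphatase SHP2, rose from 152 ± 16.4 to 476 ± 73.1 CPM (SD, n = 3; log2 fold change 1.65, adjusted for GC 1.62). SOS1 and SOS2, which load RAS with GTP, had 1.63 and 1.15, and 0.21 and 0.02 after adjustment, where SOS2 was not called (edgeR adjusted p = 0.882).

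RAS GTPase-activating proteins and scaffolds gave 6 higher and 0 lower of 8, and 5 higher and 1 lower after adjustment, with 39.3% of all genes higher before and 34.3% after. KSR1, a scaffold that assembles RAF, MEK and ERK, rose from 1.55 ± 0.38 to 17.4 ± 1.82 CPM (SD, n = 3; log2 fold change 3.48, adjusted for GC 4.34). NF1, the neurofibromin that SPRED1 recruits, had 1.54 (adjusted for GC 0.64), and RASA1 had 1.32 (0.20). ERK effector kinases gave 3 lower and 2 higher of 6, and 1 lower and 2 higher after adjustment, against 32.6% and 34.3% of all genes. Among them RPS6KA3 was at 1.77 (adjusted for GC 0.67), RPS6KA2 at -1.32 (-0.56) and MKNK2 turned from -1.1 to 0.32.

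**Figure D5:**
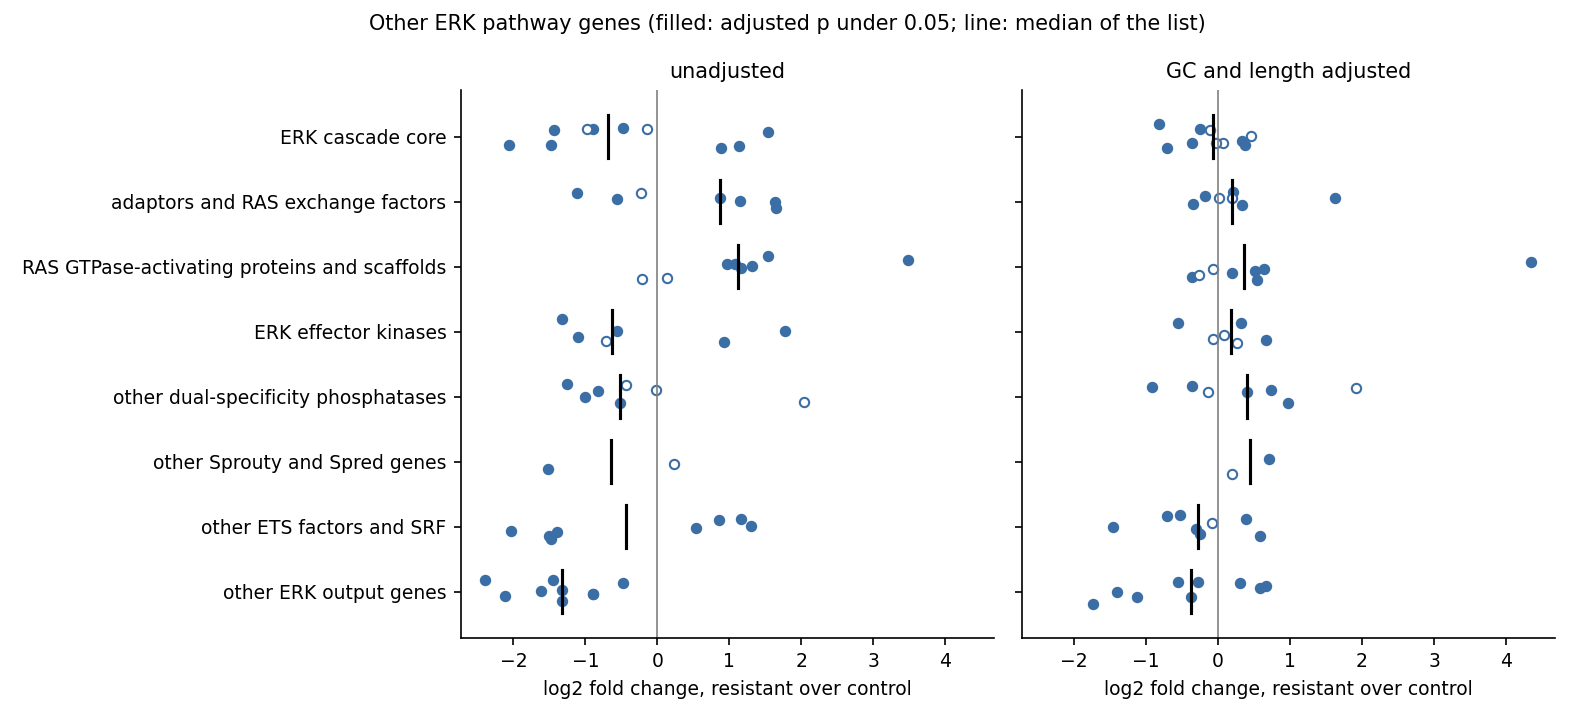
Log2 fold change (resistant over control) of the other pathway genes by list, without adjustment (left) and after GC and length adjustment (right), with filled points for an adjusted p under 0.05 and a line at each list's median. The median of the other ERK output genes is -1.33 on the left and -0.38 on the right.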

How the data were processed

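The authors deposited raw counts per gene symbol, 1 column per library, whose names equal the sample titles; 0 sample columns were left over. HISAT2 2.0.4 is named in the submitters' processing notes. The sources used here do not name the counting program, its strand setting, the build or the annotation. The members and lists were chosen with earlier results of these data known. Genes were kept by filterByExpr, scaled by TMM and tested by quasi-likelihood in edgeR 4.0.16 under R 4.3.3. SE was taken as the size of the log2 fold change divided by the square root of its F statistic. Transcript GC content and length are medians over GENCODE release 29 basic transcripts. For the adjustment, each library's deviation in log2 CPM (prior count 1) was regressed on natural splines of GC content, with 6 degrees of freedom, and of log2 length, with 5, and the fitted trend was used as an offset. It also removes any biological difference that follows GC content. All 10 members are named. Of each pathway list, up to 3 called genes with the largest change and a mean of at least 5 CPM are named, with others named where a count needed it; a gene picked by this rule is not reported here. Counts were simulated with 67, 67 and 66 genes changed 1.5-, 2- and 4-fold, and 16241 genes were tested. Of the changed genes, edgeR recovered 37.3%, 64.2% and 86.4%, with 15 false calls (10.7% of calls). Far fewer genes were changed there than the 12683 called in the data, so these rates may not hold for this comparison. DESeq2 1.42.0 was an alternative.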

Additional observations from a re-analysis of the deposited data

How the results depend on the processing

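The 10 genes were refitted under 18 other settings, of which 1, genes with a GC value without adjustment, was added after seeing the data. ETV4, ETV5, PHLDA1 and SPRY2 stayed lower and called in all 18, with adjusted p of at most 0.0015, 0.00157, 2.9e-05 and 2.18e-04. DUSP4 was called in 15 of 17 settings and was filtered out at 1 CPM in 3 libraries. SPRED1 was higher except with GC and length adjusted (-0.68, the same with the replicate block added), GC alone adjusted (-0.53) or the adjusted fit without resistant replicate 1 (-0.78). DUSP5 turned in the same settings, to 0.46, 0.48, 0.41 and 0.45. EGR1 lost its call in the 4 adjusted fits, and SPRY4 in those, by library size alone and without resistant replicate 2 or 3. The genes called lower numbered 5 with the replicate block plus adjustment and 5 in the adjusted fit without resistant replicate 1, against 8; 31.0%, 32.9% and 36.9% of all tested genes were called lower in these fits. Leaving out single libraries gave 6 to 8, against 33.8% to 36.6% of all tested genes. Replicate numbers did not pair the libraries (correlations of same-numbered libraries -0.13, -0.0132 and -0.0581). The replicate block alone gave 12097 called genes against 12683. It left 7 of the 10 genes lower, against 35.2% of all tested genes, and DUSP5 lost its call (-0.43, edgeR adjusted p = 0.0578). Depth limits DUSP4 most, with 10 counts over the resistant libraries, then ETV4 with 67.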
